A study of Danio rerio with 11 samples.

Results

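The methylation peaks of zebrafish embryos at the midblastula transition (mbt) were compared with those of embryos 3 days post-fertilization (3dpf). The comparison used 2 of the 11 samples of the series, or 2 of its 9 peak lists, with 122477 peaks at mbt and 101868 at 3dpf. An mbt peak was called kept when a 3dpf interval overlapped it by at least 1 bp and lost when none did, and a 3dpf peak with no overlapping mbt interval was called gained. The midblastula transition is reached a few hours after fertilization. Both lists came from pools of untreated whole Tübingen/AB embryos with their chorions removed, so each is an average over all cell types present. They were set beside the lists of sperm from adult males, of one-cell embryos, of 3dpf embryos raised in 400 µM methotrexate from the 1-cell stage (MTX-3dpf), and of eye, brain, heart and liver of untreated adult females.

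Cytosines in CpG dinucleotides are methylated by de novo DNA methyltransferases, and the pattern is copied at each division by the maintenance enzyme Dnmt1. Zebrafish embryos are known to keep the sperm pattern through the cleavage divisions, while the maternal genome is remodeled toward it before the midblastula transition. At that transition the cell cycle lengthens and the zygotic genome is switched on. By 3dpf the main organs have formed and most cells belong to committed lineages. In MBD-seq, sonicated DNA is captured with a methyl-CpG binding domain protein, so a peak marks a place with many captured methylated fragments. The absence of a peak does not show that a place was unmethylated.

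Each condition had 1 methylation-enriched library, so no difference between mbt and 3dpf has a replicate check and no test across replicates was possible. Intervals of shares are 95% Wilson intervals and cover counting error only, and neighboring peaks are not independent of each other. Each peak carries a score from the peak caller whose unit the files do not give, and scores were used only to rank peaks within a list. The lists differ in these ranks' absolute values, since the median score was 20.4 at mbt and 71.2 at 3dpf. In bisulfite-sequenced regions of 3dpf embryos, the paper saw no relation of the caller's score to the level of CpG methylation. Weak and strong peaks are therefore those of low and high score, and not places of less and more methylation. The mbt library was sequenced in lane 5 and its peaks were called against methylation-poor DNA of adult brain, whereas the 3dpf libraries came from another lane with methylation-poor 3dpf libraries as controls. Stage, lane and control therefore cannot be told apart. The sperm and one-cell libraries were sequenced in lane 5 too, so a peak shared with them and with mbt alone is also shared within a lane. Adult brain was sequenced partly in lane 5, so its list shares a lane with mbt in part. The number of reads behind a peak is not in the lists, so the depth at a single peak is unknown. By library, the paper's supplement gives more properly paired unique reads for 3dpf than for mbt. It gives fewer for MTX-3dpf than for either. The part of library depth in the comparisons was not tested.

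More peaks were lost than gained. Of the 122477 mbt peaks, 77228 were kept and 45249 were lost, which is 36.9% (95% CI 36.7 to 37.2). Of the 101868 peaks at 3dpf, 24640 were gained, which is 24.2% (95% CI 23.9 to 24.5), and 75.8% were kept. There were 1.84 lost peaks for each gained peak, and the 3dpf list was 16.8% shorter than the mbt list. The kept peaks lay at nearly the same positions in both lists. Their centers differed by a median of 24 bp, 76.4% of the centers were within 50 bp of each other, and 92.8% of the kept peaks overlapped by at least 100 bp. Because centers within a list were at least 414 bp apart, no interval could overlap more than 1 of the other list, and the number of kept peaks was the same whichever list was counted. In base pairs, the mbt peaks covered 24.6 Mb and the 3dpf peaks 20.5 Mb, with 12.7 Mb in common.

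The lost peaks were mostly low in the mbt list. Their median score was 8.37, against 42.5 for the kept mbt peaks, and the middle peak of the class stood at the percentile 22.3 of its list. For the gained peaks the median score was 27.3 and the median percentile 28.2, and the kept peaks of the 3dpf list scored a median of 95. Each list was divided by score into 10 bins of like size. In the lowest bin of the mbt list 89.9% of the peaks were lost (95% CI 89.4 to 90.4), in the fifth bin 34.8%, and in the ninth bin 4.77%. The share in the highest bin was again larger, 9.33% (95% CI 8.83 to 9.86). In the 3dpf list the gained share was 48.3% in the lowest bin, 22.0% in the fifth, 9.83% in the ninth and 12.0% in the highest bin. Of all lost peaks, 88.0% lay in the 5 lower bins, and of all gained peaks 73.9% did. The loss of peaks was thus concentrated at low-scoring mbt peaks, which lie nearest the calling threshold, and the part of that threshold in it was not tested.

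**Figure D1:**
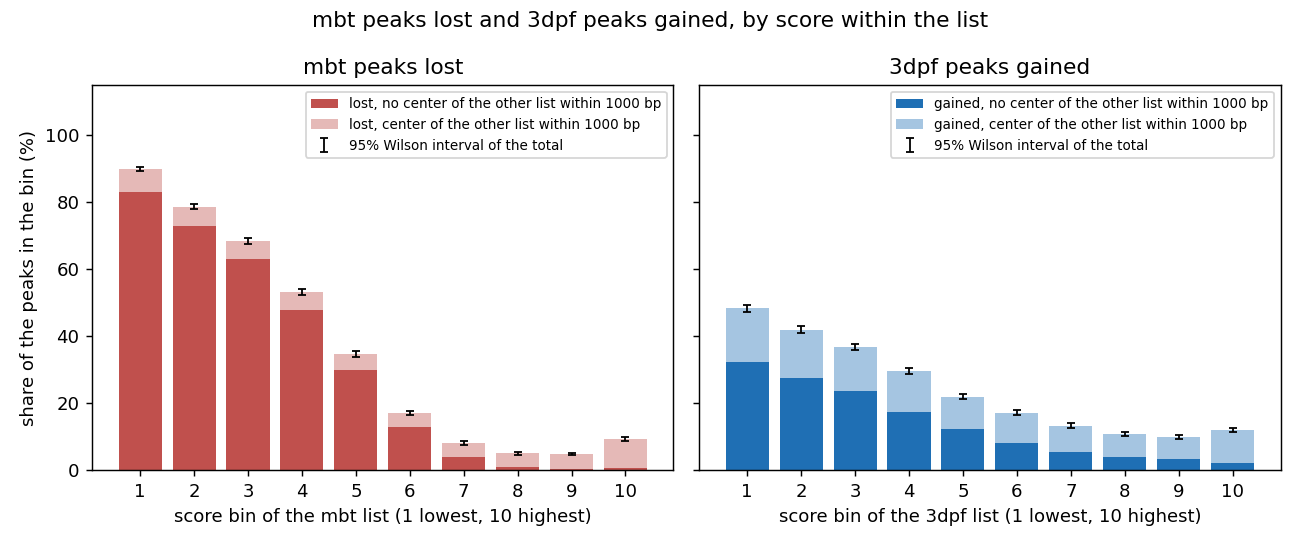
Share of mbt peaks lost (left) and of 3dpf peaks gained (right), in percent of the peaks in each of 10 score bins of the own list. Dark bars are peaks with no center of the other list within 1000 bp, light bars those with such a center, and error bars are 95% Wilson intervals of the total, which runs from 89.9% to 4.77% for lost and from 48.3% to 9.83% for gained peaks.

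At equal numbers of peaks the classes are of equal size by construction. When the mbt list was limited to its 101868 highest-scoring peaks, 74363 were kept and 27% of each list was without a partner (95% CI 26.7 to 27.3). Among the 50000 highest-scoring peaks of each list 75.4% were shared, and among the 20000 highest 70.1%. Part of the unpaired strong peaks had a partner lower in the other list. Of the 50000 highest mbt peaks, only 3458, or 6.92%, lacked a partner anywhere in the 3dpf list. The corresponding number of 3dpf peaks was 6251, or 12.5%. Among the strongest peaks the balance between the classes was thus the opposite of that in the full lists, with more 3dpf peaks than mbt peaks lacking an overlapping partner.

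The strong lost peaks mostly had a 3dpf peak close by. Of all lost peaks, 6539 (14.5%) had the center of a 3dpf peak within 1000 bp, and 38710 had none. The share with a nearby center was 7.65% in the lowest score bin, 25% in the sixth, 78.3% in the eighth and 91.5% in the highest bin. After the nearby cases were set aside, the 3 highest bins of the mbt list together held 277 lost peaks. The gained peaks were close to an mbt center far more often, with 10809 (43.9%) within 1000 bp and 13831 beyond. In the 3dpf list this share was 33.0% in the lowest and 81.2% in the highest bin. Of the nearby gained peaks, 51.6% (95% CI 50.7 to 52.5) lay within 1000 bp of an mbt peak that was itself kept, so they stood as an additional peak beside a shared one. The other 48.4% had only unshared mbt peaks that near. Among the nearby lost peaks the order was the opposite, with 21.2% beside a kept 3dpf peak and 78.8% beside unshared 3dpf peaks only.

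Gained peaks had a shorter median spacing than the other classes. The median distance from a gained peak to the nearest peak of its own list was 1886 bp, whereas it was 3565 bp for kept peaks of the same list. In the mbt list the median was 3707 bp for lost and 3268 bp for kept peaks. A neighbor within 1000 bp was present at 29.5% of the gained peaks and 10.9% of the kept 3dpf peaks, but at 5.19% of the lost and 5.20% of the kept mbt peaks. The lists themselves differed in this respect. Neighbors within 1000 bp were found for 15.4% of the peaks in 3dpf and 16.6% in MTX-3dpf, against 5.20% in mbt, 6.68% in one-cell embryos, 3.68% in sperm and between 1.43% and 2.84% in the adult tissues. The smallest distance between any pair of peaks was 414 bp in 3dpf and 554 bp in mbt. Close pairs therefore went with both 3dpf libraries, which also shared their lane, and the part of lane or peak calling in them was not tested. Gained peaks beyond 1000 bp of any mbt center still had a shorter median distance to their own neighbors (2897 bp) than lost peaks beyond 1000 bp of any 3dpf center (3932 bp).

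**Figure D2:**
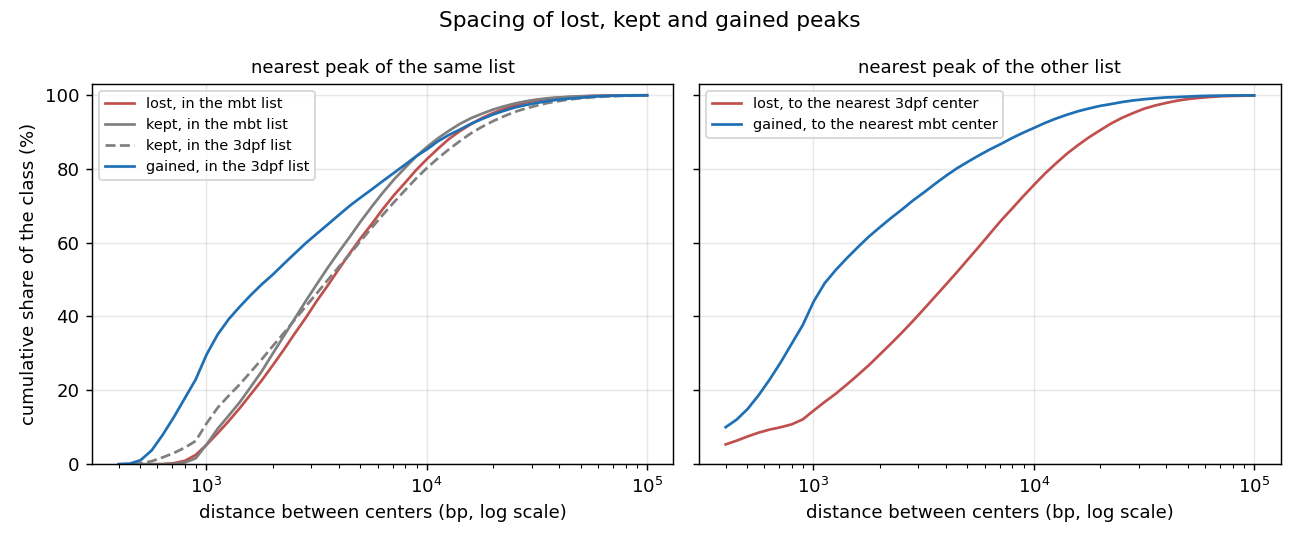
Cumulative share of each class, in percent, by distance between centers in bp on a log axis, to the nearest peak of the same list (left) and of the other list (right). The curve of the gained peaks lies to the left of the others at short distances, with 29.5% within 1000 bp of a peak of their own list and 43.9% within 1000 bp of an mbt center.

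Losses rarely emptied long stretches. The median distance from a lost peak to the nearest 3dpf center was 4183 bp, and from a gained peak to the nearest mbt center 1154 bp. No center of the other list within 10 kb was found for 24.5% of the lost and 9.01% of the gained peaks. At a limit of 50 kb, 536 lost peaks (1.18%) and 123 gained peaks (0.499%) remained. Along the 25 chromosomes the state of a peak said little about that of the next. The peak after a lost mbt peak was also lost in 38.9% of cases, against 36.0% after a kept peak. The peak after a gained 3dpf peak was also gained in 24.6% of cases, against 23.9% after a kept peak.

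The longest stretches of consecutive change were few. Runs of at least 10 lost peaks numbered 10, and 1 run of gained peaks was that long. The longest run of lost peaks held 13 mbt peaks on Zv9 chromosome 11 from 20742508 to 21000490, a stretch of 258 kb with no 3dpf peak. Of these, 9 were present in one-cell embryos, 2 in sperm and 5 in at least 1 adult tissue, and 1 was found in MTX-3dpf. The next were runs of 11 lost peaks, on chromosome 10 from 39459194 to 39541413 and on chromosome 12 from 44158537 to 44205001, each with 7 peaks found in one-cell embryos, 4 in sperm and 1 in an adult tissue. Their median scores, 7.24 and 8.47, were close to that of all lost peaks. Of all lost peaks, 72.7% were in one-cell embryos, 31.0% in sperm, 14.3% in adult tissue and 4.36% in MTX-3dpf. The longest run of gained peaks held 10 peaks on chromosome 4 from 43378075 to 43435612, where the mbt list had 1 peak. Of these, 6 were in MTX-3dpf and 5 in at least 1 adult tissue. The other long runs were 9 gained peaks on chromosome 23 from 43668285 to 43751237, of which 6 were in MTX-3dpf and 0 in adult tissue, and 8 on chromosome 1 from 31713077 to 31746703, of which 5 were in MTX-3dpf and 3 in adult tissue. Of all gained peaks, 70.2% were in MTX-3dpf and 29.4% in adult tissue.

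The MTX-3dpf list, from embryos of the same age, offered a library that the classes had not used. Methotrexate blocks the folate cycle that supplies methyl groups, so this library is a treated one and not a replicate, and it shared its lane with untreated 3dpf. Of the lost peaks, 4.36% (95% CI 4.18 to 4.56) were present in MTX-3dpf, against 87.5% of the kept mbt peaks. Weighted to the score bins of the lost peaks, the share of the kept mbt peaks in MTX-3dpf was 68.6%. Of the gained peaks, 70.2% (95% CI 69.7 to 70.8) were present there. Within the same score bin of the 3dpf list, gained peaks recurred in MTX-3dpf nearly as often as kept peaks. In the lowest bin the shares were 28.6% for gained and 28.0% for kept peaks, in the fifth bin 96.4% and 98.3%, and in the highest bin 81.4% and 96.8%. Weighted to the bins in which gained peaks occurred, kept peaks recurred in 72.2%. Of the 91872 peaks in MTX-3dpf, 19.0% were shared with untreated 3dpf alone of the pair and 2.17% with mbt alone.

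Lost and gained peaks differed in their presence before mbt. Of the lost peaks, 72.7% overlapped a peak of one-cell embryos and 31.0% a peak of sperm. The shares of the gained peaks were 45.3% and 25.2%, and those of the kept mbt peaks 86.0% and 89.0%. Weighted to the score bins of the lost peaks, the kept mbt peaks had shares of 82.2% in one-cell embryos and 62.9% in sperm. The most frequent history of a lost peak, at 48.3%, was presence in one-cell embryos without sperm. Of the kept mbt peaks, 8.06% had this history. It went with low score, at a median percentile of 18.1 for lost and 31.9 for kept peaks. The median percentile of all kept mbt peaks was 66.3. The shares of this history were not compared at like score. Another 20.7% of the lost peaks were in neither of these earlier lists. Of the gained peaks 43.1% were in neither, while 13.6% were in both and yet had no mbt peak. Lost peaks with no 3dpf center within 1000 bp were in one-cell embryos more often (75.9%) than those with one (53.4%). The one-cell list is the longest of the series, with 178587 peaks, and the shares were not corrected for this length. Sperm and one-cell embryos shared their lane with mbt and not with 3dpf, so presence before mbt and lane cannot be told apart here.

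The presence in sperm varied with score in a different way for each class. Among lost peaks it was 8.78% in the lowest bin of the mbt list, 64.8% in the fifth and 82.5% in the sixth bin, and then 64.0% in the highest. Among gained peaks it stayed between 19.98% and 31.8% in all 10 bins, against 71.3% to 95.9% among the kept peaks of the 3dpf list. Weighted to the score bins of the gained peaks, 82.1% of the kept peaks were in sperm and 84.6% in one-cell embryos. A gained peak was thus seldom a sperm peak even when it was among the strongest of the 3dpf list, whereas the stronger lost peaks were mostly sperm peaks. They were so less often than kept peaks of the same mbt bins. From the sixth mbt bin upward, 94.1% to 96.9% of the kept and 64.0% to 82.5% of the lost peaks were in sperm. Sperm shared its lane with mbt and not with 3dpf, and the part of lane in the contrast between lost and gained peaks was not tested. In the 3 highest bins, a center of the other list lay within 1000 bp of 78.3% to 92.3% of the lost peaks. For gained peaks it was 64.1% to 81.2%. In sperm, 3.68% of the peaks had a neighbor that close, against 15.4% at 3dpf. The sperm shares by bin were not computed without nearby peaks. Over all bins, 28.2% of the lost and 26.2% of the gained peaks with no such center were in sperm.

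**Figure D3:**
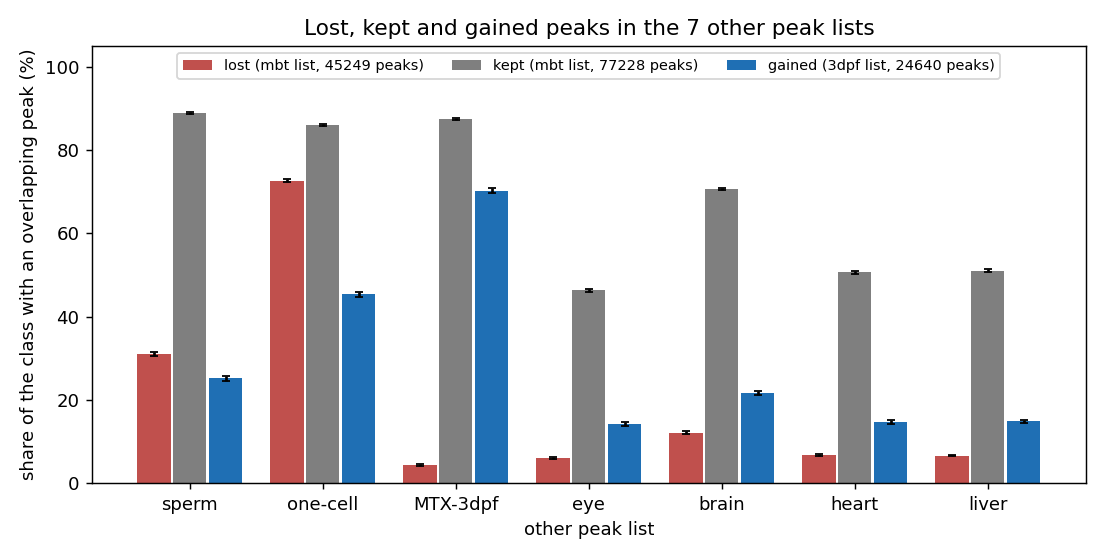
Share of lost, kept (counted on the mbt list) and gained peaks, in percent, that overlapped a peak in each of the 7 other lists, with 95% Wilson intervals as error bars. Lost peaks were found most often in one-cell embryos (72.7%), gained peaks most often in MTX-3dpf (70.2%), and kept peaks exceeded both classes in every list.

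Kept peaks were those most often found in adult tissues. At least 1 of eye, brain, heart and liver had an overlapping peak at 74.3% (95% CI 74.0 to 74.6) of the kept mbt peaks, at 29.4% (95% CI 28.8 to 30.0) of the gained and at 14.3% (95% CI 14.0 to 14.6) of the lost peaks. All 4 tissues had one at 41.5% of the kept, 7.22% of the gained and 4.08% of the lost peaks. By tissue, brain had 70.7% of the kept peaks, liver 51.0%, heart 50.7% and eye 46.3%. Of the gained peaks, brain had 21.7%, liver 14.8%, heart 14.6% and eye 14.3%. Of the lost peaks, brain had 12.1%, heart 6.83%, liver 6.65% and eye 6.06%. Brain stood first in all 3 classes, and its list is also the longest of the 4, with 79008 peaks. Its DNA was sequenced in 2 lanes, among them the lane of mbt. With each tissue list limited to the 45785 highest-scoring peaks, brain came last, with 43.9% of the kept, 11.6% of the gained and 5.37% of the lost peaks. Among peaks found in a single adult tissue of the full lists, brain was that tissue for 95.9% of the kept, 80.6% of the gained and 90.4% of the lost peaks. These shares were not corrected for the length of the brain list.

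The order of lost and gained peaks depended on score. Taken over the whole lists, gained peaks were found in adult tissue more often than lost peaks. In the lowest bins of the respective lists the shares were 19.5% for gained and 3.51% for lost peaks. From the sixth bin upward the lost peaks had the larger share, with 77.1% against 54.9% in the eighth bin and 73.0% against 66.5% in the highest. The same bin of the mbt and 3dpf lists is not an equivalent level. Kept peaks had adult shares of 21.0% and 36.9% in the lowest mbt and 3dpf bins, and 66.0% and 77.8% in the sixth. In the 5 upper bins together, at least 1 adult tissue had 59.8% of the lost and 52.2% of the gained peaks. Many of these lost peaks had a 3dpf center nearby, and among the 277 lost peaks of the 3 highest bins with no 3dpf center within 1000 bp the share was 71.1%, 64.4% and 58.8% from the eighth to the highest bin. For gained peaks with no mbt center within 1000 bp it was 63.1%, 64.4% and 67.4% in the same bins. With the nearby peaks set aside, the lost peaks thus no longer had the larger share in the highest bin, nor in the sixth, where it was 37.3% for lost and 43.6% for gained peaks. They still had it in the seventh bin, with 54.9% against 52.2%, and in the eighth. From the seventh bin upward the intervals of lost and gained peaks overlapped. In the highest bin they were 48.8 to 68.0 for 97 lost peaks and 61.1 to 73.1 for gained peaks (95% CI). In every bin of both lists, kept peaks were found in adult tissue more often than lost or gained peaks. Weighted to the bins of the lost peaks, 34.4% of the kept peaks had an adult counterpart, and weighted to those of the gained peaks 57.5%.

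**Figure D4:**
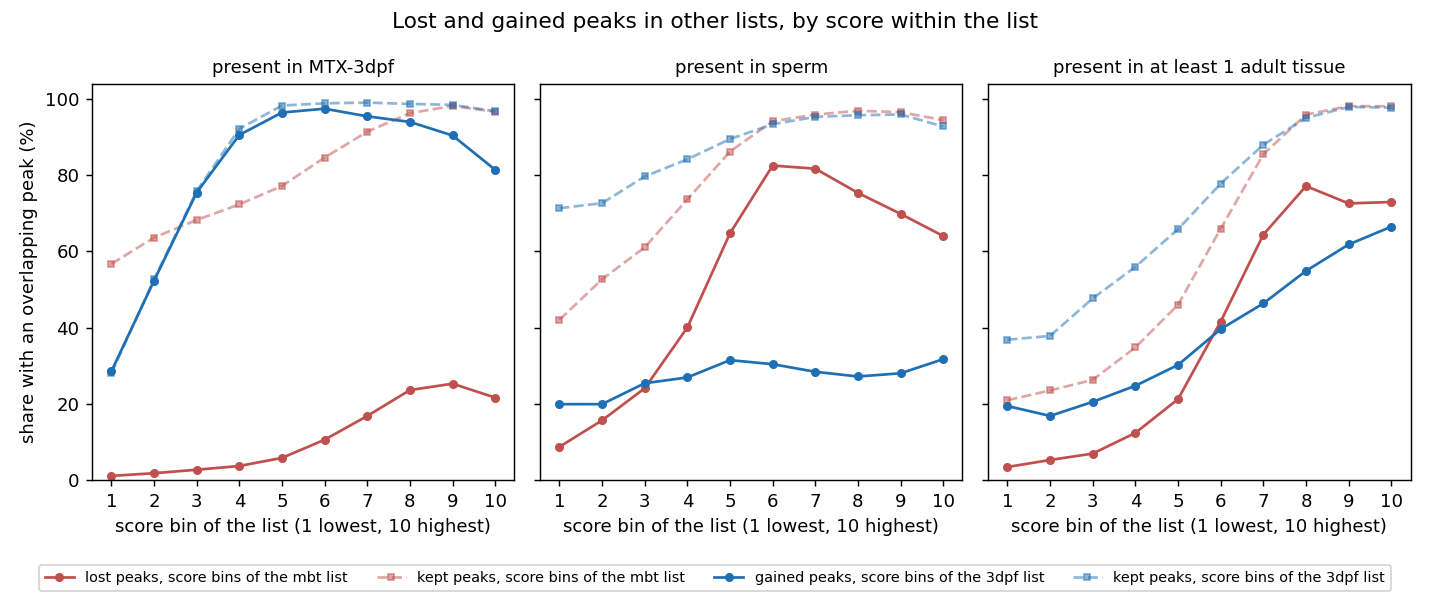
Share of lost, gained and kept peaks, in percent, with an overlapping peak in MTX-3dpf (left), sperm (middle) and at least 1 adult tissue (right), by score bin of the own list from lowest (1) to highest (10). The curve of gained peaks nearly follows that of kept 3dpf peaks in MTX-3dpf, stays between 19.98% and 31.8% in sperm, and is crossed by that of lost peaks in adult tissue at the sixth bin.

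The order of the tissues depended on score in all 3 classes. In the highest bin of the 3dpf list, 51.1% of the gained peaks were present in eye, 46.8% in heart and 42.4% in brain. In the lowest bin the order was the reverse, with 16.7% in brain, 6.91% in heart and 5.71% in eye. The kept 3dpf peaks had a like turn, with 34.2% in brain and 9.02% in eye in the lowest bin and 92.6% and 94.2% in the highest. The lost peaks did too, with 3.01% in brain and 0.981% in eye in the lowest bin and 52.3% and 53.9% in the highest, and the brain list is longer than the others. Presence in adults also differed with presence before mbt. Of the gained peaks found in sperm but not in one-cell embryos, 63.4% (95% CI 61.6 to 65.1) had an adult counterpart, against 27.6% of those in neither and 14.3% of those in one-cell embryos alone. Among lost peaks, the same histories gave 50.5%, 7.44% and 2.87%. Peaks in both earlier lists had 41.4% among gained and 32.8% among lost peaks. The histories also differed in score, with which adult presence varied. In the same order, with both last, the median percentiles were 41.44, 13.05, 18.13 and 39.19 for lost peaks. For gained peaks they were 37.41, 31.03, 22.38 and 31.23. The histories were not compared within score bins, so the part of score in these shares was not tested.

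Seen from the adult lists, most peaks were already present at mbt and still present at 3dpf. Both embryonic lists held 78.2% of the eye peaks, 78.2% of the heart peaks, 78.7% of the liver peaks and 69% of the brain peaks. Presence at 3dpf without mbt applied to 7.22% of the eye peaks (95% CI 6.99 to 7.46), and presence at mbt without 3dpf to 5.91% (95% CI 5.70 to 6.13). The corresponding shares were 6.73% and 6.09% in heart, and 6.84% and 5.84% in liver. In brain the order was the opposite, with 6.47% at 3dpf alone and 6.98% at mbt alone, although among brain peaks above the median score it was 5.93% and 5.39%. Brain was sequenced partly in the lane of mbt, and the part of lane in its order was not tested. Neither list held 8.66% of the eye, 8.98% of the heart, 8.66% of the liver and 17.5% of the brain peaks. In sperm, which shared its lane with mbt, the difference was larger, with 14.5% of the peaks at mbt alone and 6.12% at 3dpf alone. Most of it lay at low-scoring sperm peaks. Below the median sperm score the shares were 23.7% and 9.15%, and above it 5.37% and 3.10%. The mbt list is also longer than the 3dpf list.

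Losses and gains were spread over all chromosomes, and every one of the 25 had fewer peaks at 3dpf than at mbt. The lost share ran from 35.1% on chromosome 2 (95% CI 33.9 to 36.4) to 39.9% on chromosome 13 (95% CI 38.5 to 41.4). The gained share ran from 22.2% on chromosome 17 (95% CI 20.9 to 23.6) to 29.9% on chromosome 4 (95% CI 28.4 to 31.4). The median over the chromosomes was 36.7% for the lost and 23.6% for the gained share. From mbt to 3dpf the number of peaks on chromosome 4, which was 4016 at mbt, fell by 10.03%, the least of the 25, and that on chromosome 11 fell by 21.5%, the most. Chromosome 4 kept the highest gained share of all 25 under each of the 4 alternatives computed by chromosome. On the unplaced scaffolds 34.0% of 4779 mbt peaks were lost and 27.2% of 4334 3dpf peaks were gained. Across chromosomes the lost and gained shares had a Pearson's r of -0.18 and a Spearman's rho of -0.28 (n = 25 chromosomes of the same libraries, a description only).

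The long arm of zebrafish chromosome 4 is known to be heterochromatic, late replicating and rich in repeats. The chromosome was divided at 25 Mb, and its parts departed from the other chromosomes in opposite directions. Below 25 Mb, 44.4% of 1336 mbt peaks were lost (95% CI 41.7 to 47.1) and 19.7% of 925 3dpf peaks were gained (95% CI 17.2 to 22.4). Above 25 Mb, 33.2% of 2680 mbt peaks were lost (95% CI 31.5 to 35.0) and 33.4% of 2688 3dpf peaks were gained (95% CI 31.6 to 35.2), so that numbers lost and gained were nearly equal, at 890 and 898. The other 24 chromosomes together had shares of 37.1% and 23.8%. The median mbt score was 15.6 below 25 Mb, 21.3 above and 20.4 on the other chromosomes. At 3dpf the medians were 54.1, 53.4 and 72.2. In windows of 1 Mb over all chromosomes, the lost share was lower where the median mbt score was higher (Spearman's rho -0.71). It reached 64.3% in a window of chromosome 11. The chromosome 4 parts were not compared with other chromosomes at like score, so the contribution of score to their shares was not tested. Of the peaks gained above 25 Mb, 41.2% (95% CI 38.0 to 44.5) were present in at least 1 adult tissue and 33.4% in brain, against 28.7% and 21.0% on the other chromosomes. Of the peaks lost there, 36.0% were present in adult tissue, against 13.6% on the other chromosomes. The kept mbt peaks above 25 Mb also had a larger adult share, 82.7% against 74.0%. On the unplaced scaffolds, 21.4% of the lost and 34.9% of the gained peaks were present in adult tissue. MTX-3dpf held 66.5% of the peaks gained above 25 Mb, against 70.4% on the other chromosomes. Reads from repeats can be placed at several positions, and the mapping quality behind single peaks is not in the lists, so its part here was not tested.

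**Figure D5:**
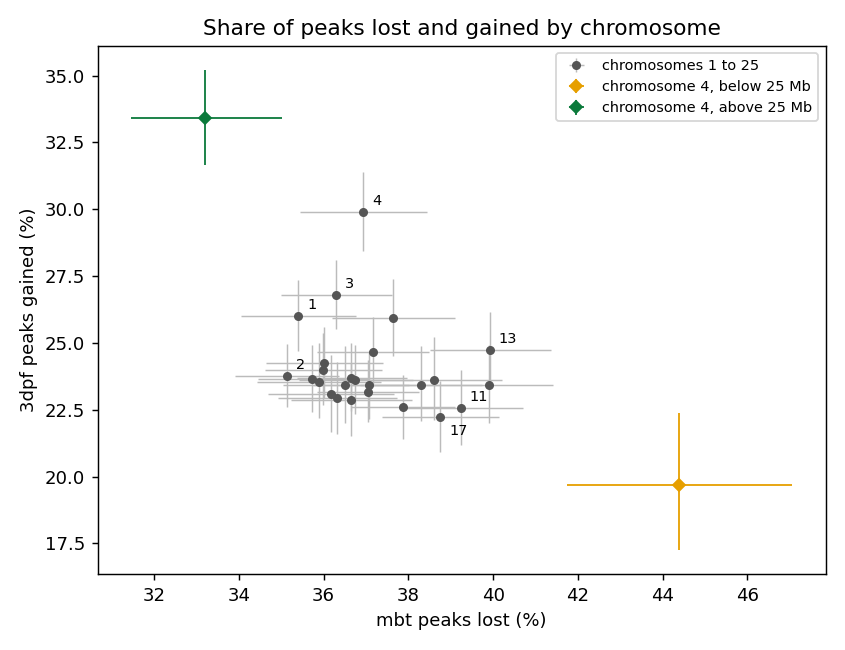
Share of 3dpf peaks gained against share of mbt peaks lost, both in percent, for the 25 chromosomes (points, some numbered) and for chromosome 4 below and above 25 Mb (diamonds), with 95% Wilson intervals; the axes do not start at 0. Chromosome 4 has the highest gained share (29.9%), and its parts lie at 44.4% lost with 19.7% gained and at 33.2% lost with 33.4% gained.

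Toward the chromosome ends a smaller share of the mbt peaks was lost. Within 1 Mb of an end the lost share was 33.7% (95% CI 32.6 to 34.9) and from 1 to 5 Mb it was 33.5%, against 38.5% (95% CI 38.2 to 38.8) farther in. The gained share varied less, with 24.4%, 23.4% and 24.3%. These parts were not compared at like score. In windows of 1 Mb, 1352 of 1369 held at least 50 peaks of both lists together. The mbt list had more peaks than the 3dpf list in 91.6% of them and fewer in 6.66%. Of the 90 windows with more peaks at 3dpf, 16 lay on chromosome 4, all of them above 25 Mb, where 37 windows were counted. The lost share had a median of 37.8% over windows, with 90% of windows between 26.6% and 52.9%, and the gained share a median of 23.3%, with 90% between 13.3% and 36.7%. Both numbers of peaks went together across windows (Pearson's r 0.96, n = 1352 windows of the same libraries, a description only). The lost share was lower in windows with a higher median mbt score (Spearman's rho -0.71), and it was unrelated to the gained share (rho -0.02).

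The windows with the highest lost share were small in number of peaks. On chromosome 11 from 20000001 to 21000000, 36 of 56 mbt peaks were lost (64.3%, 95% CI 51.2 to 75.5). Of these, 25 were present in one-cell embryos, 12 in sperm and 9 in adult tissue, and 3 were in MTX-3dpf. On chromosome 23 from 23000001 to 24000000, 40 of 64 mbt peaks were lost, and 4 of them were present in adult tissue. On chromosome 9 from 40000001 to 41000000, 29 of 47 mbt peaks were lost, of which 6 were present in adult tissue. The median mbt scores of these windows, between 12.3 and 15.7, were below that of the whole list. Over all lost peaks the shares were 72.7% in one-cell embryos, 31.0% in sperm, 14.3% in adult tissue and 4.36% in MTX-3dpf. The highest gained share was on chromosome 4 from 52000001 to 53000000, where 21 of 37 peaks at 3dpf were gained (56.8%, 95% CI 40.9 to 71.3), 12 of them present in MTX-3dpf and 12 in adult tissue. On chromosome 5 from 33000001 to 34000000, 16 of 31 were gained, with 12 in MTX-3dpf, and on chromosome 14 from 34000001 to 35000000, 19 of 37 were gained, with 15 in MTX-3dpf. The chromosome 4 window had a median 3dpf score of 21.1, well below that of the list, whereas it was 110 in the chromosome 5 window. Over all gained peaks the shares were 70.2% in MTX-3dpf and 29.4% in adult tissue.

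Strong peaks far from any partner were rare. Beyond 5 kb of a center of the other list there were 20250 lost and 4487 gained peaks. The lost peak with the highest score of these lay on chromosome 4 from 47066717 to 47066917. It had a score of 206 and stood at the percentile 97.1 of the mbt list. The nearest 3dpf center was 79981 bp away, and of the other lists only one-cell embryos had it. The other lost peaks among the first 5 were on scaffold Zv9_NA580 from 47781 to 47981, on chromosome 21 from 33598706 to 33598906 and from 18773302 to 18773502, and on chromosome 22 from 11320142 to 11320342. The peaks on chromosomes 21 and 22 were present in brain, heart and liver and in sperm, but the scaffold peak was in no adult list. The chromosome 21 peak from 33598706 was also present in MTX-3dpf, from embryos of the same age, and the other 4 were not.

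The gained peak with the highest score lay on chromosome 14 from 40329630 to 40329830, 21792 bp from the nearest mbt center. Its score of 405 put it at the percentile 93.7 of the 3dpf list, and among the other lists it was found in MTX-3dpf alone. The next were on chromosome 5 from 41591718 to 41591918, present in one-cell embryos, MTX-3dpf and liver, and on scaffold Zv9_NA213 from 31072 to 31272, present in liver alone. A gained peak on chromosome 13 from 19173210 to 19173410 and another on scaffold Zv9_NA355 from 44651 to 44851 were present in MTX-3dpf and in all 4 adult tissues, the latter also in sperm. Genes at these positions were not assigned, since an annotation of Zv9 was not used here.

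Among the kept peaks the order of scores was largely preserved. Spearman's rho between the scores at mbt and 3dpf was 0.81 over 77228 kept peaks (a description only, since neighboring peaks share the libraries and local sequence). The percentile moved by at most 25 points for 80.0% of them. Kept peaks of the lowest mbt bin had a median percentile of 18.2 in the 3dpf list, and those of the highest bin 92.8. Of all kept mbt peaks, 89.0% were present in sperm, 74.3% in adult tissue and 87.5% in MTX-3dpf. These shares are not a like background for peaks with a large move, since such a move fixes the part of each list they stand in. A move of more than 50 points downward occurred at 1568 kept peaks (2.03%) and upward at 71. Of those that moved down, 95.2% were present in sperm, 73.9% in adult tissue (95% CI 71.7 to 76.0) and 41.3% in MTX-3dpf. They came from above the mbt median, where 89.2% of the kept peaks were present in adult tissue. They ended in the 5 lower bins of the 3dpf list, where 28.0% to 98.3% of the kept peaks were in MTX-3dpf. The kept peaks of those 3dpf bins had adult shares of 36.9% to 65.9%. The adult share of the peaks that moved down was thus lower than in their mbt bins and higher than in their 3dpf bins. Of those that moved up, 76.1% were present in sperm, 53.5% in adult tissue (95% CI 42.0 to 64.6) and 97.2% in MTX-3dpf. They came from the 5 lower bins of the mbt list, where the kept peaks had adult shares between 21.0% and 46.0%. They ended in the 5 upper bins of the 3dpf list, where 96.8% to 99.0% of the kept peaks were in MTX-3dpf. The kept peaks of those 3dpf bins had adult shares of 77.8% to 97.9%. The adult share of the peaks that moved up was thus higher than in their mbt bins and lower than in their 3dpf bins.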

How the data were processed

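MBD-seq libraries were made by the authors from pooled embryos or tissue and sequenced as paired ends. Per the labels, reads were aligned with BWA 0.5.8c and peaks called with MACS2 2.0.10.20120703. The paper's methods give the build as Zv9, properly paired reads with a mapping quality above 5, and intervals reaching 100 bp either way from the center. The deposited score of each peak is the authors' value from the caller, without a stated unit, and was used for ranks within a list.

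Python 3.11.15 was used for overlaps, distances and shares, together with pandas 2.3.3, NumPy 2.4.6 and SciPy 1.17.1, and matplotlib 3.10.9 for figures. The functions were checked on simulated lists with built-in kept, lost and gained peaks. With 1 library per condition there was no test, and no depth per peak. Named items were the extreme chromosomes and chromosome 4, the 3 windows and 3 runs first for each class, and the first 5 lost and gained peaks by score beyond 5 kb of the other list. Members, lists and rules were chosen with earlier results of these data known. Gene lists had been planned but an annotation or genome of Zv9 was not used here, so no gene or sequence is given. Alternatives were a stricter overlap, centers within a distance, equal numbers, score limits, merged peaks, base pairs, and the MTX-3dpf list.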

Additional observations from a re-analysis of the deposited data

Results flagged for a closer look

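Brain stood far above the other adult tissues in the share of lost peaks present there, with 12.1% against 6.06% to 6.83%. It did so too in the share of gained peaks, with 21.7% against 14.3% to 14.8%. These are 2 of 4 groups of 4 tissues examined, and the other 2 hold the kept peaks, counted once on each list. For separate groups of like tissues chance flags about 1 in 20, or 0.2 of 4. That rate does not apply here, since the tissue lists differ in length. The groups share the same tissue lists and each tissue has 1 list. Brain was sequenced in 2 lanes, among them the lane of mbt, and the other tissues in 1. The brain list is the longest of the adult lists, and at 45785 peaks per tissue the brain shares were 5.37% and 11.6%, the lowest of the 4 tissues in both classes.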

How the results depend on the processing

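No paired analysis was possible because each condition has 1 library. Intervals here are narrow, so most alternatives moved a value beyond its counting interval. With an overlap of at least 100 bp, 41.5% of the mbt peaks were lost and 29.6% of the 3dpf peaks gained. With centers within 1000 bp counted as shared, these shares were 31.6% and 13.6%. At equal numbers both were 27% with as many peaks as the 3dpf list, 24.6% with 50000 and 29.9% with 20000 peaks, and 37706 and 14014 peaks were kept in the latter settings, which hold fewer peaks. With both lists at or above their median score, 32.7% were lost, 18.9% gained and 41302 kept. Peaks at or above the median against the whole other list gave 8.90% lost and 12.6% gained. In base pairs the shares were 48.3% and 37.8%, and no number of kept peaks can be given. With MTX-3dpf in place of untreated 3dpf, 43.2% were lost. Chosen after seeing the data, absence from both 3dpf lists applied to 35.3% of the mbt peaks, and of 3dpf peaks also found in MTX-3dpf 20.4% were gained.

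Presence in at least 1 adult tissue was 17.3% for lost, 72.6% for kept and 30.4% for gained peaks with an overlap of at least 100 bp. At as many peaks as the 3dpf list it was 20.8%, 76.3% and 28.6%, and at 50000 peaks 80.6%, 96.3% and 58.7%. At or above the median of the own list it was 59.7%, 89.2% and 52.2%. Without brain it was 8.05%, 54.9% and 18.9%, and with tissue lists of equal length 8.34%, 54.6% and 20.4%. Without peaks near a center of the other list it was 9.63% for lost and 28.2% for gained peaks. For lost peaks also absent from MTX-3dpf it was 12.7%, and for gained peaks also present there 33.9%, both chosen after seeing the data. Kept peaks had the largest share in all 8 settings that gave the 3 classes, and gained peaks exceeded lost peaks in 6, the exceptions being 50000 peaks and the median limit.

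The lost share differed between chromosomes by 7.03 percentage points at 50000 peaks, in place of 4.80, and chromosome 4 then had the highest lost share too. Among lost and gained peaks, a center of the other list lay within 500 bp of 7.45% and 14.8%, and within 5000 bp of 55.2% and 81.8%. At as many peaks as the 3dpf list the shares within 1000 bp were 19.0% and 37.1%, and the median distances to the own neighbor 4431 bp for lost, 3848 bp for kept and 2072 bp for gained peaks. Of 88 values for single tissues, 68 moved beyond their interval. Keeping the 25 chromosomes alone moved none of the values above. Merging overlapping peaks could change nothing, since no peaks overlapped within a list.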
